A study of Mus musculus with 15 samples.

Results

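This comparison follows the mouse kidney across birth, from embryonic day 16 (E16d) to postnatal day 1 (PN1d). No array lies between these ages, so the step across birth holds late gestation as well. "At birth" below stands for this whole step. It used 10 of the 15 Illumina MouseRef-8 arrays of the developmental series, 5 of E16d and 5 of PN1d, each of which read kidney RNA from untreated BALB/c mice for which the labels name no genetic change. The remaining 5 arrays, of postnatal day 7 (PN7d), entered the same statistical model and served to set the step across birth beside the step of the first week. A gene was included if its mean exceeded 6.22 in 1 or more of the ages, on the log2 scale of intensity. This level is the median of all deposited values. A gene read by several probes was represented by the brightest. This left 9531 genes, taken from the 13074 of 24613 probes that passed that level. Levels are log2 intensities, and differences are PN1d minus E16d on that scale with the standard error (SE) of the limma model. A gene was called higher or lower at an adjusted p under 0.05 (Benjamini-Hochberg over the 9531 genes). The values flatten out at a floor, so differences of dim genes are understated, and where all 5 arrays of the dimmer age lay at or below 6.22 the difference is given as a bound ("at least N-fold").

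At E16d the mouse kidney grows by branching of the ureteric bud and by turning progenitors of the cap mesenchyme into new nephrons, while the placenta still does most of the work of excretion. At birth the placental supply of glucose, calcium and amino acids ends, and the kidney takes over salt, water, acid and phosphate balance, although nephrons go on forming for a few days in mice. The proximal tubule reabsorbs most of the filtered solutes and also makes glucose, active vitamin D and antioxidant enzymes, the thick limb and distal segments recover salt, and the collecting duct sets the final water and acid content of the urine.

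The arrays of an age resembled each other, with correlations between 0.983 and 0.996, and no 2 arrays held the same values. Precision is limited by having 5 arrays for each age. Over all probes past 6.22 with 1 gene symbol, the median SD was 0.0816 at E16d and 0.0983 at PN1d. No source used here tells whether a sample came from 1 animal or from several, and the p-values therefore cover the spread between arrays, which may be technical in part. The methods describe biological triplicates without naming the species. For the mouse kidneys the paper's results give 5 for each age, as do the labels, and the p-values rest on these 5 arrays. Of 14 kidney marker genes listed, 9 had a probe, and 8 of them, among them Pax8, Wt1, Umod and Cdh16, lay above the median of all values on all 10 arrays. The probe of Pax2, which is also a defining kidney gene, lay near 5.9 at both ages and gave no level. The methods state that male mice were used, but Kdm5d, a gene of the Y chromosome, was high (7.44 to 7.95) on only 5 of the 15 arrays, namely E16d replicate 4, PN1d replicates 1 and 3 and PN7d replicates 1 and 3, and lay between 5.75 and 5.86 on the other 10. Eif2s3y and Uty, also Y-linked but dimmer, were highest on the same 5 arrays. Eif2s3y lay at 6.14 to 6.38 there and at 5.79 to 5.92 elsewhere, and Uty at 6.08 to 6.18 and 5.82 to 5.90. Uty and Usp9y stayed below 6.22, and Usp9y did not set these arrays apart. Numbers of 5 or more genes in a list that moved by over 1.5 times on the 10 arrays low in Kdm5d, an alternative chosen after the data were seen, are given with that value. PN1d replicate 2 also stood apart by its level of liver plasma protein genes, whose summed intensity was 22530 there against 6394 to 9594 on the other PN1d arrays and 3566 to 4357 at E16d.

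Across birth, 4415 of the 9531 genes changed (46.3%), 2039 of them higher at PN1d (21.4%) and 2376 lower (24.9%). The rises reached much further than the falls. Past 1.5-fold there were 502 higher genes (5.27%) and 313 lower genes (3.28%), past 2-fold 194 and 17, past 4-fold 33 and 2, and past 8-fold 7 and 1. The median called rise was 0.37 and the median called fall was -0.33, whereas the median of all genes was -0.02 with quartiles at -0.18 and 0.15. The ranges of E16d and PN1d did not overlap for 3526 genes (37%), of which 1682 (17.6%) were higher and 1844 (19.3%) lower at PN1d. Of the genes tested, 296 had a mean above 6.22 at PN1d but not at E16d, and 226 at E16d but not at PN1d. In RNA of a mixed tissue, a fall in the number of cells of a type and a fall in RNA per cell cannot be told apart, and the same holds for rises.

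**Figure D1:**
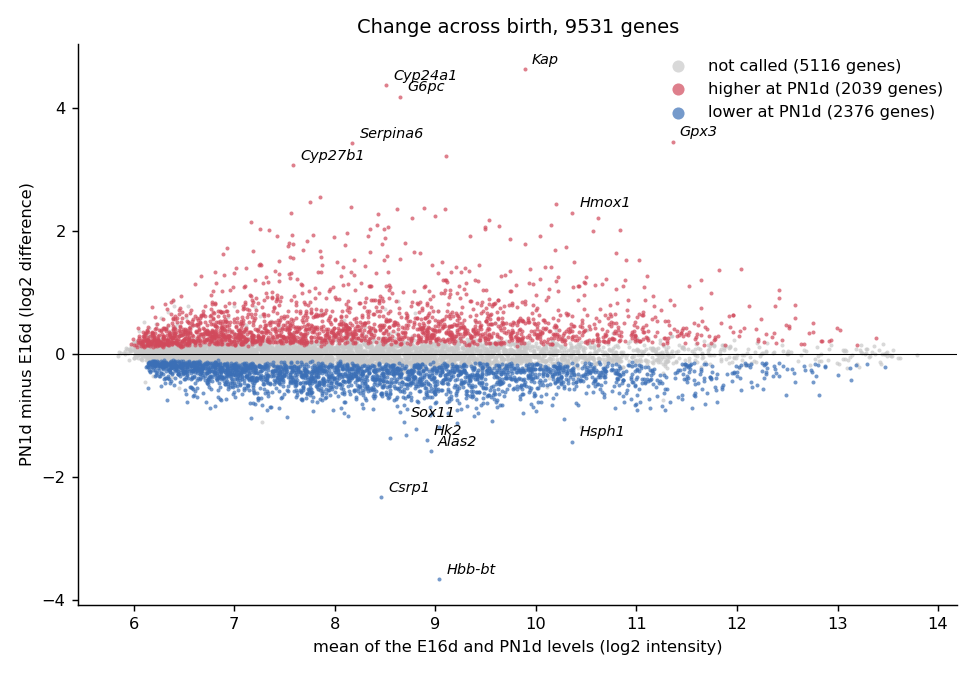
Each point is 1 of the 9531 genes, with the mean of its E16d and PN1d levels (log2 intensity) on the x axis and the difference PN1d minus E16d (log2) on the y axis; red points are the 2039 genes called higher and blue points the 2376 called lower. The upper tail is longer than the lower: 33 genes rose past 4-fold and 2 fell past it.

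Rises and falls were ranked among the genes that passed the test, whose arrays of both ages did not overlap and whose brighter age lay above 6.22 on each array, so the lack of overlap in this section is part of the choice. The 15 largest rises among them were led by proximal tubule genes, by both key enzymes of vitamin D and by glucose production. Kap, an androgen-regulated protein that proximal tubule cells secrete, lay at 7.03, 7.48, 7.59, 8.25 and 7.53 at E16d and at 11.88, 11.97, 12.32, 12.44 and 12.38 at PN1d. All 5 PN1d arrays thus lay over 3 log2 units above the highest E16d array, and Kap rose by 4.62 (SE 0.17, adjusted p = 2.62e-11), the largest difference among the genes tested. G6pc, the catalytic subunit of the phosphatase that releases free glucose, lay at 6.76, 6.49, 6.38, 6.51 and 6.68 at E16d and at 10.54, 10.60, 11.12, 10.81 and 10.63 at PN1d. Its E16d arrays were close to the median of all values and did not overlap the PN1d arrays, and it rose by 4.18 (SE 0.20, adjusted p = 3.34e-10). Gpx3, the secreted glutathione peroxidase of plasma, which the kidney makes, was already well measured before birth, at 9.68, 9.78, 9.65, 9.74 and 9.34 at E16d and at 13.10, 12.84, 13.29, 13.17 and 13.03 at PN1d. It rose 10.9-fold, by 3.44 (SE 0.09, adjusted p = 1.58e-13), the smallest adjusted p of all genes tested.

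Both enzymes that set active vitamin D rose together. Cyp24a1, which inactivates the hormone, lay at 6.26, 6.31, 6.53, 6.30 and 6.24 at E16d and at 10.63, 10.49, 10.87, 10.93 and 10.56 at PN1d. The 5 PN1d arrays spread over less than 0.5, and the gene rose 20.6-fold, by 4.36 (SE 0.20, adjusted p = 2.26e-10). Cyp27b1, which makes the active hormone, lay at 6.08, 6.02, 6.09, 5.93 and 6.17 at E16d and at 9.05, 9.57, 9.63, 9.48 and 7.88 at PN1d. No E16d array reached the level of 6.22, PN1d replicate 5 was the lowest of its age, and the rise was at least 7.47-fold (3.06, SE 0.25, adjusted p = 8.22e-08).

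Serpina6, the corticosteroid-binding globulin of plasma, lay at 6.71, 6.44, 6.43, 6.29 and 6.45 at E16d and at 9.73, 9.98, 9.86, 9.93 and 9.94 at PN1d. The PN1d arrays lay within 0.3 of each other, and Serpina6 rose by 3.43 (SE 0.11, adjusted p = 3.64e-12). Defb19, a beta-defensin, lay at 7.61, 7.48, 7.56, 7.32 and 7.51 at E16d and at 10.63, 10.42, 10.76, 11.07 and 10.69 at PN1d and rose by 3.22 (SE 0.15, adjusted p = 3.20e-10). The groups stood 2.8 log2 units apart at their nearest arrays. Hmox1, the heme oxygenase that breaks heme down to bilirubin precursors and iron, lay at 9.12, 9.0, 9.36, 9.22 and 9.35 at E16d and at 12.07, 11.02, 11.81, 11.17 and 11.46 at PN1d and rose by 2.29 (SE 0.16, adjusted p = 1.45e-08). Nat8, an acetyltransferase of the pathway that makes mercapturic acids, lay at 7.83, 7.60, 8.29, 8.06 and 7.83 at E16d and at 10.54, 9.93, 10.46, 10.40 and 10 at PN1d. Its PN1d arrays all lay above its E16d arrays, and it rose by 2.35 (SE 0.21, adjusted p = 2.37e-07).

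The other genes among the 15 largest rises were Pck1, which commits carbon to glucose synthesis (2.54, SE 0.22, adjusted p = 1.45e-07), Tmem252, a membrane protein (2.47, SE 0.16, adjusted p = 7.82e-09), Miox, which opens the ring of myo-inositol (2.43, SE 0.17, adjusted p = 1.64e-08), Ranbp3l, a Ran-binding protein (2.38, SE 0.14, adjusted p = 2.77e-09), and Nr1h4, the nuclear receptor of bile acids (2.36, SE 0.13, adjusted p = 1.76e-09). Pck1 lay between 6.35 and 6.84 at E16d and between 8.57 and 9.47 at PN1d. Fga, the alpha chain of fibrinogen, completed the 15. Ttr, a liver plasma protein gene described with its list, rose by 2.38 but was not among them because its arrays overlapped. Fga lay at 6.68, 6.26, 6.30, 6.44 and 6.42 at E16d and at 7.98, 11.11, 8.31, 8.77 and 7.40 at PN1d, with PN1d replicate 2, the array high in liver genes, far above the rest. Fga rose by 2.29 (SE 0.46, adjusted p = 0.000647), and without PN1d replicate 2 by 1.70, still past the test.

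**Figure D2:**
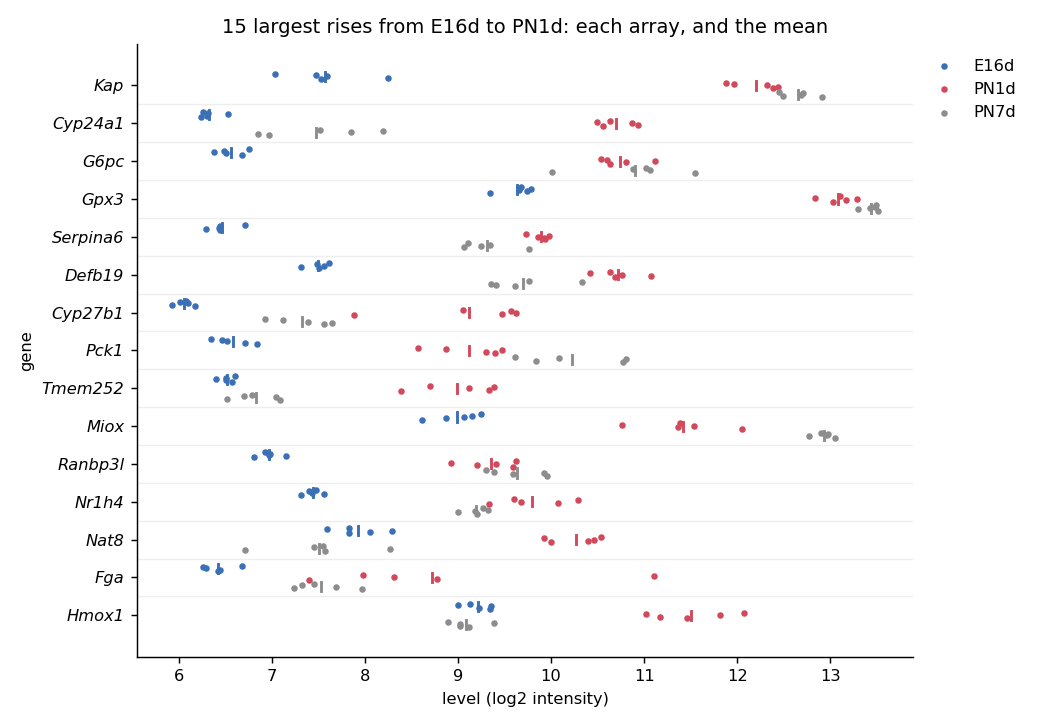
Levels (log2 intensity, x axis) of the 15 largest rises among genes whose arrays did not overlap, on the 5 E16d, 5 PN1d and 5 PN7d arrays, 1 point for each array and a tick at the mean of each age. The PN1d points lie to the right of the E16d points by the choice of genes, from Kap (7.03 to 8.25 against 11.88 to 12.44) down to Hmox1 (9.0 to 9.36 against 11.02 to 12.07).

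The promoters of these genes shared a short sequence that the choice of genes did not use. RefSeq promoters (GRCm38.p6, from 250 bases before to 50 after the first listed start) were at hand for 7719 of the 9531 genes and for 11 of the 15 largest rises. Their letters were searched on both strands for GTTAAT, the core recognised by the HNF1 factors, which are transcription factors of proximal tubule and liver. It was found in 7 of the 11 promoters (63.6%), against 348 of all 7719 (4.51%), 5.89% of the promoters of higher genes, 13.6% of those of genes higher by over 2-fold 3.61% of those of lower genes and 5.42% of those of genes lower by over 1.5-fold. In the promoters of the proximal tubule solute carriers tested the share was 17.1%, and in those of its sugar enzymes 27.8%. Short matches also arise by chance and are given as a description of the sequences. The 7 promoters are shown because they belong to the largest rises. GTTAAT, or ATTAAC where it lies on the other strand, is in capitals, and each window is written in the direction of its gene.

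G6pc (chr11:101367466-101367585, plus strand): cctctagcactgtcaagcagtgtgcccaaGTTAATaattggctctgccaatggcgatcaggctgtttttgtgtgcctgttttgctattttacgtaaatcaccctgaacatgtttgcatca
Pck1 (chr2:173152843-173152962, plus strand): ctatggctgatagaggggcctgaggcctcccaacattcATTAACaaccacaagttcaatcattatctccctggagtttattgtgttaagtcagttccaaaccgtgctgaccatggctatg
Miox (chr15:89334273-89334392, plus strand): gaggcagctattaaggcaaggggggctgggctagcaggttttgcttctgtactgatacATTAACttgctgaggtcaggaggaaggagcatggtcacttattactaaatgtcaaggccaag
Nr1h4 (chr10:89506659-89506778, minus strand): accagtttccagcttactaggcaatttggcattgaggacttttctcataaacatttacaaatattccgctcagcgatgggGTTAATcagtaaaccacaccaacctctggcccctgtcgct
Ranbp3l (chr15:8967729-8967848, plus strand): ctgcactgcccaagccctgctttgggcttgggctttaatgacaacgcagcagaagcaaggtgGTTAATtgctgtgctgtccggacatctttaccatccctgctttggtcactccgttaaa
Tmem252 (chr19:24673858-24673977, plus strand): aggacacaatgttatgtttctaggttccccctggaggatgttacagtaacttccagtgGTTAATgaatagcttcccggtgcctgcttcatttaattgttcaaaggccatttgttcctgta
Fga (chr3:83026033-83026152, plus strand): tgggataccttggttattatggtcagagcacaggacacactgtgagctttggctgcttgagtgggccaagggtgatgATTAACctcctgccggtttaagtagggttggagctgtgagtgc

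Of the other motifs searched, AGGTCA, a nuclear receptor core, was in 12.6% of all promoters, in 21.8% of those of genes higher by over 2-fold and in 11.2% of those of genes lower by over 1.5-fold. TATAAA, the TATA box, was in 8.27%, 15.6% and 12.1% of these. The E-box CACGTG, which clock factors and others bind, was in 9.99%, 6.8% and 12.5%, and ACGTGC, a hypoxia core that can overlap it, in 8.2%, 6.12% and 12.1%. Among lists described below, AGGTCA was in 38.9% of promoters of sugar metabolism, 24.4% of solute carriers and 22% of cell cycle and mitosis. It was in 15.4% of those of chaperones and 10% of those of DNA replication.

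The largest falls were smaller and held genes of red cells, chaperones and embryonic regulators. Hbb-bt, an adult beta-globin chain of red cells, lay at 9.16, 11.24, 10.38, 11.93 and 11.66 at E16d and at 6.85, 7.34, 7.35, 7.43 and 7.05 at PN1d. The E16d arrays spread over nearly 2.8 log2 units, all of them above the PN1d arrays, and Hbb-bt fell by 3.67 (SE 0.55, adjusted p = 4.40e-05). The beta-globin genes are near-identical copies, so probes may read each other's transcripts. Hbb-b2, another beta-globin gene, changed by -0.67 (SE 0.20, adjusted p = 0.00961). On the arrays low in Kdm5d its difference was -0.68 and did not pass (adjusted p = 0.0662). Hba-a1, an alpha-globin chain near the top of the scale (13.45 to 13.73), gave -0.08 and did not pass. Alas2, the red cell enzyme that starts heme synthesis, lay at 9.87, 9.36, 10.24, 9.82 and 9.46 at E16d and at 7.99, 8.68, 8.34, 8.25 and 7.56 at PN1d and fell by 1.58 (SE 0.23, adjusted p = 3.17e-05). No PN1d array reached the lowest E16d array.

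Csrp1, a LIM protein of the actin cytoskeleton, was tight at both ages, at 9.67, 9.50, 9.62, 9.68 and 9.65 at E16d and at 7.29, 7.30, 7.36, 7.41 and 7.11 at PN1d, and fell by 2.33 (SE 0.52, adjusted p = 0.00157). Its PN7d arrays split into 3 near 7.1 to 7.3 and 2 above 10, and with the E16d and PN1d arrays alone in the model its adjusted p was 8.41e-11. Hsph1, a large heat shock protein that reloads Hsp70, lay at 11.18, 11.05, 11.02, 11.07 and 11.10 at E16d and at 9.65, 9.40, 9.75, 9.53 and 9.91 at PN1d and fell by 1.44 (SE 0.08, adjusted p = 1.70e-09). The groups were over 1 log2 unit apart at their nearest arrays. Hk2, the hexokinase of growing and glycolytic cells, lay at 9.35, 9.71, 9.71, 9.83 and 9.51 at E16d and at 8.10, 8.72, 7.92, 8.29 and 8.03 at PN1d and fell by 1.41 (SE 0.14, adjusted p = 4.34e-07). Pttg1, the securin that holds sister chromatids until anaphase, lay at 8.78, 9.01, 9.23, 9.84 and 9.34 at E16d and at 6.69, 8.59, 8.51, 6.92 and 8.63 at PN1d. PN1d replicates 1 and 4 lay below 7 and the other PN1d arrays above 8.5, and Pttg1 fell by 1.38 (SE 0.36, adjusted p = 0.00465).

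The remaining 9 of the 15 fell by 1.02 to 1.32. They were Ppp1r3c, a subunit that targets a phosphatase to glycogen (-1.32), Fam111a, a protease of replicating chromatin (-1.19), Nme4, a mitochondrial nucleoside diphosphate kinase (-1.13), Sox11, a transcription factor of embryonic progenitors (-1.11), Hoxc6, a homeobox factor of trunk position (-1.10), Chordc1, a cochaperone of Hsp90 (-1.07), Crabp2, which carries retinoic acid to the nucleus (-1.05), Pcyox1l, an oxidase-like protein (-1.02), and Hspa5, the main chaperone of the endoplasmic reticulum (-1.02). Fam111a, at 9.67, 9.62, 9.69, 9.57 and 9.59 at E16d and at 8.57, 8.41, 8.36, 8.40 and 8.47 at PN1d, had the smallest adjusted p among the falls (6.20e-10).

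**Figure D3:**
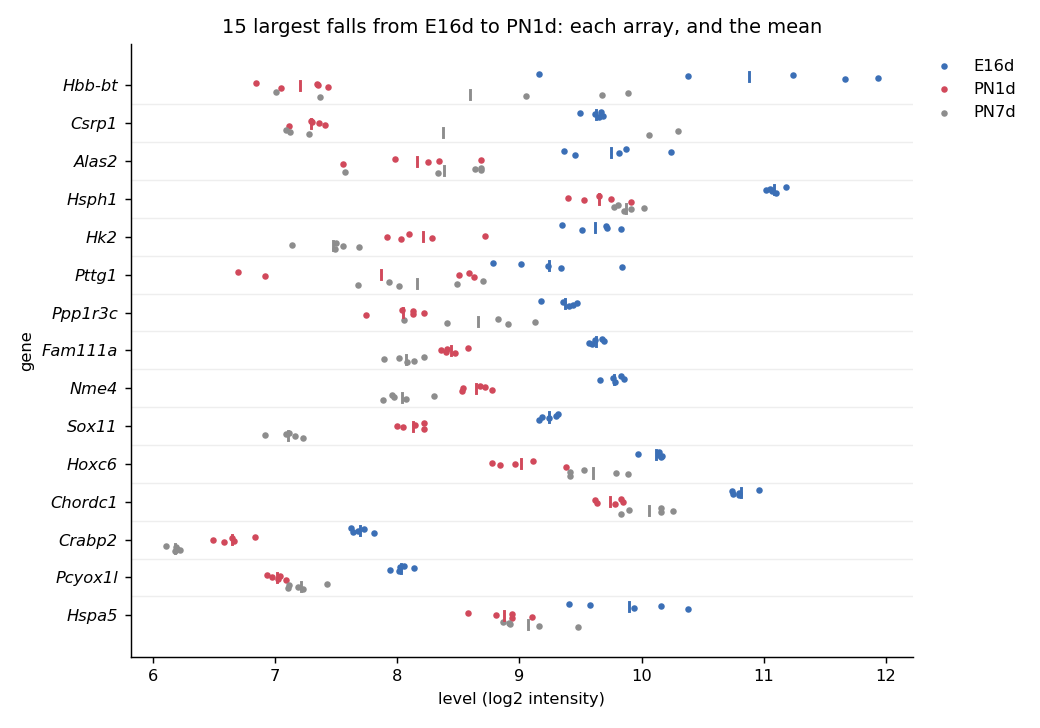
Levels (log2 intensity, x axis) of the 15 largest falls among genes whose arrays did not overlap, on the 5 E16d, 5 PN1d and 5 PN7d arrays, 1 point for each array and a tick at the mean of each age. The PN1d points lie to the left of the E16d points by the choice of genes, with wide spread for Hbb-bt at E16d (9.16 to 11.93), Pttg1 at PN1d (6.69 to 8.63) and Csrp1 at PN7d (7.09 to 10.30).

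The step across birth was then set beside the step from PN1d to PN7d. Both steps share the PN1d arrays, so an unusual PN1d value enters each with the opposite sign. The steps were not scaled to their length in days. Of the 2039 genes that rose across birth, 804 (8.44% of the genes tested) rose again during the first week, 345 (3.62%) fell back, and 890 were not called over the week. Of the 2376 that fell, 896 (9.4%) fell again, 319 (3.35%) rose back, and 1161 were not called. The difference between the steps itself passed the test for 2616 genes (27.4%), 1193 of them with the larger value at birth (12.5%) and 1423 with the smaller (14.9%). Fewer passed on the 10 arrays low in Kdm5d: 1324 genes for the difference between steps, 196 peaks at PN1d and 140 troughs.

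Cyp24a1 made the largest such arc. After its rise of 4.36 it changed by -3.22 (SE 0.20, adjusted p = 4.28e-09) to 6.86 to 8.19 at PN7d, a difference between the steps of 7.58 (SE 0.34, adjusted p = 4.77e-10). Nat8 changed by -2.76 (SE 0.21, adjusted p = 5.49e-08) during the week, to PN7d arrays between 6.71 and 8.27 that did not reach the highest E16d array (8.29). Hmox1 changed by -2.42 (SE 0.16, adjusted p = 9.79e-09) to 8.89 to 9.39, about the range of E16d. Tmem252 changed by -2.16 (SE 0.16, adjusted p = 3.46e-08) to 6.51 to 7.09, close above its E16d arrays. Hsd17b2, which turns estradiol and testosterone into weaker steroids, lay at 6.50, 6.51, 6.35, 6.47 and 6.52 at E16d and at 8.48, 8.5, 8.54, 8.48 and 7.91 at PN1d. It rose by 1.91 (SE 0.10, adjusted p = 7.98e-10) and changed by -1.94 (SE 0.10, adjusted p = 5.88e-10) to 6.32 to 6.58, so that PN1d alone stood out. Cyp27b1 and Defb19 changed by -1.79 and -1.02 over the week, and their PN7d arrays still lay above those of E16d. Kap and G6pc, in contrast, made nearly all of their rise between E16d and PN1d. Their week differences were 0.45 and 0.16, of which that of G6pc did not pass (adjusted p = 0.537).

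In the other direction, 5 of the 10 genes with the lowest difference between steps fell at birth and then rose. Hsd11b2, which shields the mineralocorticoid receptor from glucocorticoids in the distal nephron, lay at 8.53, 8.19, 8.14, 8.12 and 8.13 at E16d and at 7.56, 7.57, 7.35, 7.28 and 7.41 at PN1d, fell by 0.78 (SE 0.10, adjusted p = 1.36e-05) and then rose by 1.48 to 8.64 to 9.15. Vcam1, an adhesion molecule, lay at 9.76, 9.88, 9.87, 9.79 and 9.94 at E16d and at 9.03, 9.09, 8.80, 9.02 and 8.88 at PN1d. It fell by 0.88 (SE 0.08, adjusted p = 1.99e-07) and rose by 1.05 over the week. Lum, the keratan sulfate proteoglycan lumican of connective tissue, lay at 8.24, 8.76, 8.70, 8.62 and 8.59 at E16d and at 7.26, 7.43, 7.78, 7.55 and 8.01 at PN1d, fell by 0.97 (SE 0.13, adjusted p = 1.20e-05) and rose by 1.04. The PN7d arrays of Vcam1 and Lum lay at about their E16d levels and those of Hsd11b2 above them. Hoxc6 fell by 1.10 and rose by 0.59, and Ppp1r3c fell by 1.32 and rose by 0.61, both with PN7d arrays that stayed below those of E16d. Cyp4a14, a fatty acid omega-hydroxylase, rose at least 1.27-fold at birth and by 3.87 on the log2 scale over the week. Car3, a carbonic anhydrase abundant in fat and muscle, was not called at birth (-0.56, adjusted p = 0.352) and rose by 3.20 over the week, with PN7d arrays between 7.20 and 10.90. The other probe of Car3 gave 1.44 over the week. The week changes of Hbb-bt (1.39), Csrp1 (1.07) and Alas2 (0.22) did not pass.

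**Figure D4:**
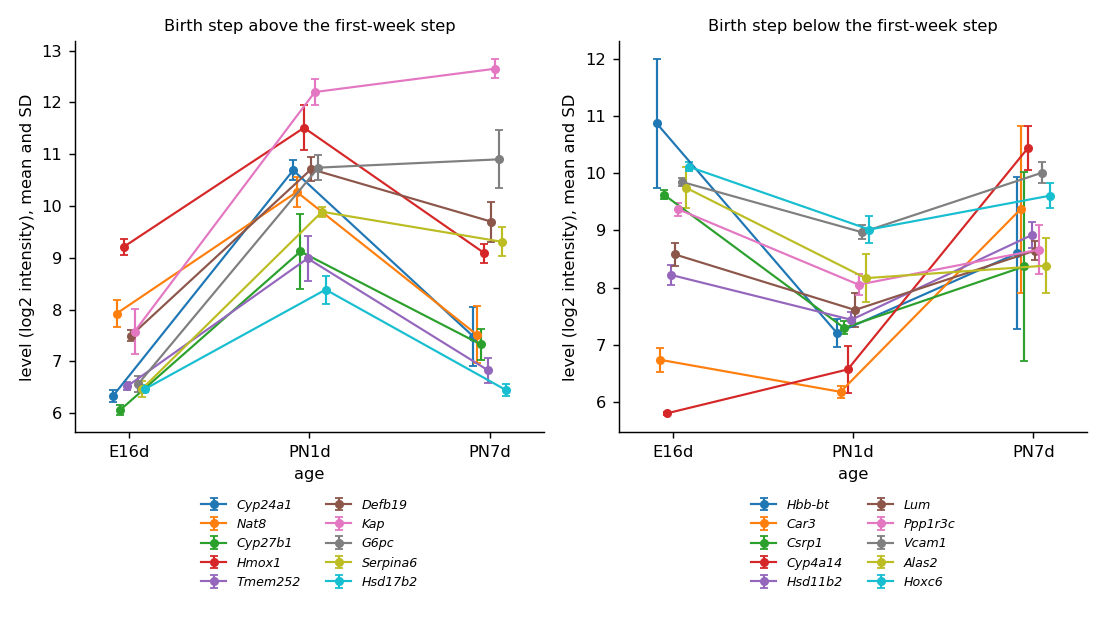
Mean level (log2 intensity, y axis) at E16d, PN1d and PN7d (x axis), with SD over 5 arrays, of the 10 genes whose birth step most exceeded the first-week step (left) and the 10 with the reverse (right). Cyp24a1, Nat8, Hmox1, Tmem252 and Hsd17b2 peaked at PN1d, while Hsd11b2, Vcam1 and Lum were lowest there.

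Gene groups were followed through 42 lists, which held 1137 of the genes tested, 408 of them higher and 313 lower. In each account below, the number tested is that of the listed genes whose probe passed the level of 6.22, and counts are to be read against the 21.4% higher and 24.9% lower of all genes and their median of -0.02. Counts by the difference between steps are to be read against 12.5% of all genes above and 14.9% below. For peaks at PN1d the share of all genes is 3.62%. Rises and falls at both steps made up 8.44% and 9.4% of all genes, and those over the week 24.1% and 21.2%. Unless an array is named, leaving out 1 array moved no number of 2 or more higher or lower genes by over 1.5 times. Numbers of 0 or 1 moved by at most 1.

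**Figure D5:**
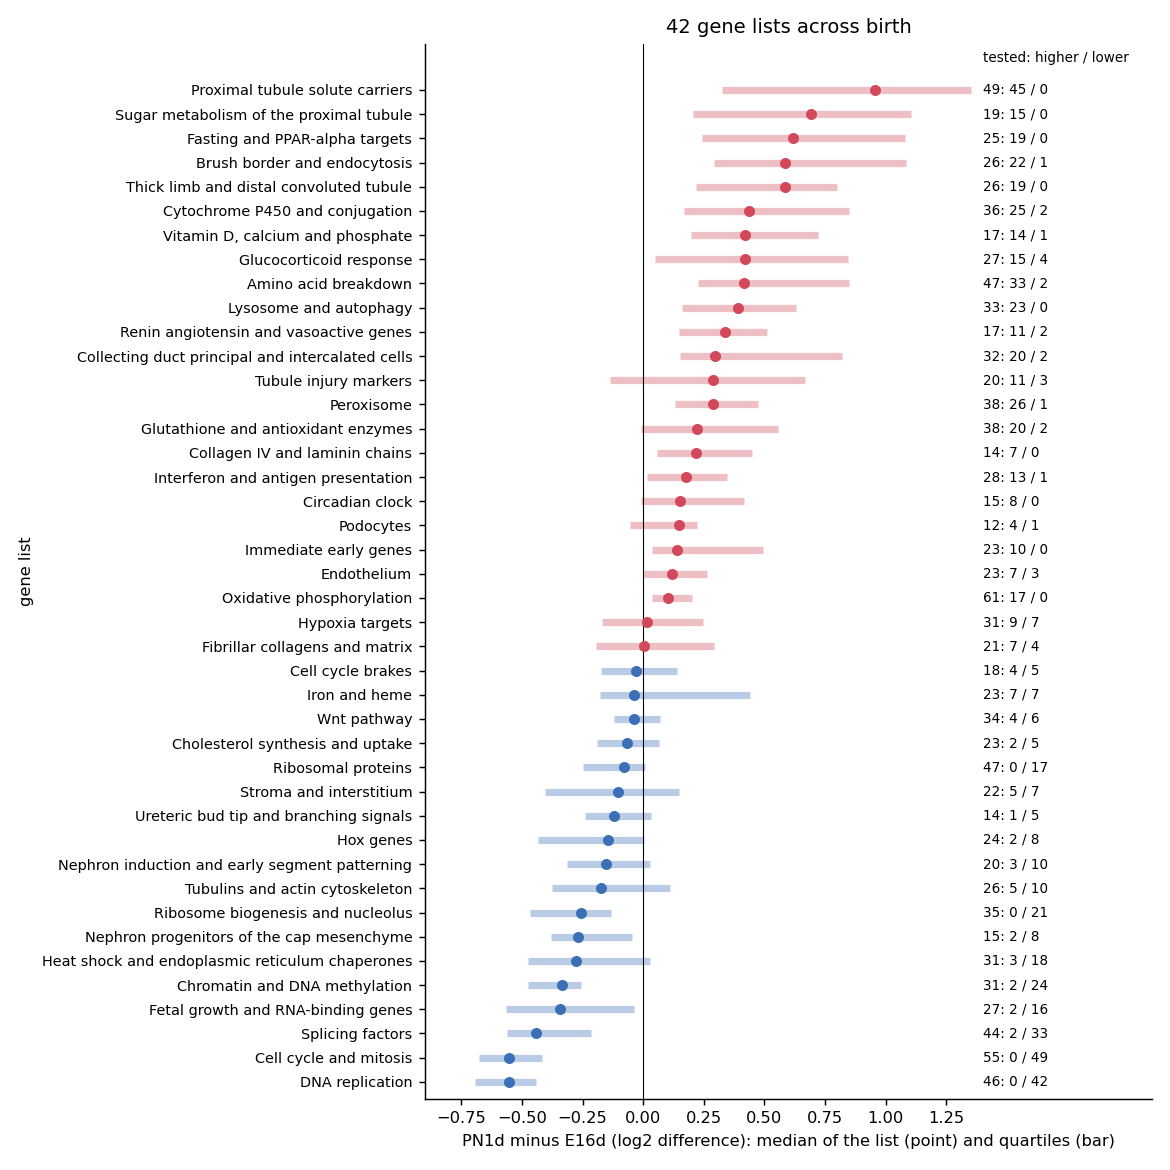
For each of 42 gene lists, the median PN1d minus E16d difference (log2, x axis; point) and its quartiles (bar), with the number of genes tested and those called higher and lower at the right. Medians run from 0.95 for the proximal tubule solute carriers to -0.55 for DNA replication.

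Solute carriers of the proximal tubule had the highest share of rises among the 42 lists. Of 62 listed, 59 had a probe and 49 were tested, of which 45 rose and 0 fell, with a median of 0.95. Slc5a10, a sodium-coupled carrier of sugars, lay at 7.12, 7.21, 7.38, 7.42 and 7.34 at E16d and at 9.29, 9.10, 10.05, 9.24 and 10.12 at PN1d and rose by 2.27 (SE 0.18, adjusted p = 6.76e-08). Slc7a7, the basolateral exporter of cationic amino acids, rose by 2.03 (SE 0.12, adjusted p = 2.38e-09), and Slc22a6, the organic anion transporter OAT1, by 1.91 (SE 0.12, adjusted p = 7.78e-09). Slc22a6 then fell by 0.74 during the week. Over the first week 24 of the 49 carriers rose and 9 fell, and their median was 0.21. The median on the arrays low in Kdm5d was 0.94, with 41 higher.

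The brush border and the endocytic machinery of the same cells rose as well. Of 26 genes tested of 36 listed, 22 rose and 1 fell, with a median of 0.58. Dpep1, a membrane dipeptidase, lay at 7.63, 7.19, 7.24, 7.36 and 7.27 at E16d and at 9.69, 9.04, 9.31, 9.40 and 9.42 at PN1d and rose by 2.04 (SE 0.11, adjusted p = 1.76e-09). Anpep, the aminopeptidase N of microvilli, lay at 8.52, 8.72, 8.29, 8.39 and 7.99 at E16d and at 10.75, 10.51, 10.49, 10.21 and 9.53 at PN1d. It rose by 1.91 (SE 0.18, adjusted p = 4.32e-07) and fell by 0.76 over the week. Treh, the trehalase of the brush border, lay between 5.92 and 6.18 at E16d, rose at least 2.97-fold and changed by -1.10 (SE 0.09, adjusted p = 1.84e-07) over the week. The gene that fell was Cdhr1, a cadherin-related protein (-0.17), with -0.15 on the arrays low in Kdm5d, which did not pass there (adjusted p = 0.0887). Of 33 genes tested of lysosomes and autophagy, 23 rose and 0 fell (median 0.39), led by the acid lipase Lipa (1.69, SE 0.15, adjusted p = 1.27e-07), the sialidase Neu1 (1.13) and the protease legumain, Lgmn (1.09).

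Among 19 enzymes tested of sugar metabolism in the proximal tubule, 15 rose and 0 fell, with a median of 0.69. Besides G6pc, Pck1 and Miox, Fbp1, the bisphosphatase of glucose synthesis, lay at 7.76, 7.66, 7.78, 7.57 and 7.55 at E16d and at 9.96, 9.72, 10, 10.01 and 9.64 at PN1d and rose by 2.20 (SE 0.12, adjusted p = 1.29e-09). Of 25 tested targets of fasting and PPAR-alpha, 19 rose and 0 fell (median 0.62). Pdk4, the kinase that blocks glucose oxidation, lay at 6.64, 6.66, 6.62, 6.70 and 6.69 at E16d and at 8.35, 8.79, 8.63, 7.95 and 8.33 at PN1d and rose by 1.75 (SE 0.15, adjusted p = 1.62e-07). Acot3, a peroxisomal thioesterase, rose by 1.56 (SE 0.21, adjusted p = 1.33e-05), with PN1d replicate 4 (7.51) below the other PN1d arrays (8.29 to 8.73). Of 38 peroxisomal genes tested, 26 rose and 1, Gnpat of ether lipid synthesis, fell (-0.23). On the arrays low in Kdm5d its difference was -0.20 and did not pass (adjusted p = 0.0854). Acox2, the oxidase of branched chains and bile acid precursors, lay at 6.86, 6.77, 6.78, 6.88 and 6.74 at E16d and at 8.62, 8.63, 8.71, 8.77 and 8.48 at PN1d and rose by 1.84 (SE 0.11, adjusted p = 2.16e-09).

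Amino acid breakdown rose and in part fell back. Of 47 genes tested of 67 listed, 33 rose and 2 fell, with a median of 0.42, and 12 of the 47 were peaks at PN1d. Hao2, a peroxisomal hydroxy acid oxidase, lay at 9.10, 8.96, 9.09, 9.21 and 9.12 at E16d and at 11.01, 11.11, 11.41, 11.30 and 11.15 at PN1d, rose by 2.1 (SE 0.10, adjusted p = 2.32e-10) and changed by -0.88 (SE 0.10, adjusted p = 2.33e-06) over the week. Ass1, of arginine synthesis, lay at 10.08, 9.96, 9.66, 9.74 and 9.69 at E16d and at 11.82, 11.76, 11.89, 11.94 and 11.82 at PN1d. It rose by 2.02 (SE 0.10, adjusted p = 6.20e-10), and Hgd, of tyrosine breakdown, by 1.97 (SE 0.12, adjusted p = 3.58e-09). The genes that fell were Gamt, of creatine synthesis (-0.47), and Srm, the spermidine synthase (-0.77). Oxidative phosphorylation moved far less: of 61 genes tested, 17 rose and 0 fell, the median was 0.10, and the largest rise was that of cytochrome c1, Cyc1 (0.44). On the arrays low in Kdm5d, 7 of the 61 rose. Cholesterol synthesis did not move as a group, with 2 of 23 higher and 5 lower (1 higher without E16d replicate 1, PN1d replicate 2 or PN1d replicate 4, 3 lower without E16d replicate 2, and 2 lower on the arrays low in Kdm5d). Fdps, the farnesyl diphosphate synthase, fell by 0.38 (SE 0.11, adjusted p = 0.00748).

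Detoxifying enzymes rose in number. Of 36 tested of cytochrome P450 and conjugation, 25 rose and 2 fell (median 0.44). Ugt3a2, a glycosyltransferase, lay at 6.41, 6.29, 6.34, 6.34 and 6.30 at E16d and at 8.34, 8.21, 8.54, 8.42 and 8.23 at PN1d and rose by 2.01 (SE 0.17, adjusted p = 1.23e-07), and Sult1c2, a sulfotransferase, rose by 1.68 (SE 0.16, adjusted p = 3.30e-07). Of 38 glutathione and antioxidant genes, 20 rose and 2 fell. Gsta1 and Gsta2, near-identical glutathione transferases whose probes may read both, rose by 2.17 and 2.03. Gstp1, a transferase of many fetal and dividing cells, fell by 0.70, with PN1d replicate 4 (11.62) level with the lowest E16d array.

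In the thick limb and distal convoluted tubule the rise went on after birth. Of 26 tested of 35 listed, 19 rose and 0 fell (median 0.58), and 15 rose at both steps. Umod, the uromodulin of the thick limb, lay at 7.51, 7.57, 7.76, 7.57 and 7.39 at E16d and at 9.39, 9.33, 9.43, 9.34 and 9.74 at PN1d. It rose by 1.89 (SE 0.13, adjusted p = 9.91e-09) across birth and by 1.67 over the week. Slc12a3, the thiazide-sensitive cotransporter, lay at 8.43, 8.31, 8.02, 8.37 and 8.13 at E16d and at 9.58, 9.75, 9.54, 9.74 and 9.84 at PN1d and rose by 1.44 (SE 0.13, adjusted p = 2.40e-07). Klk1, the kallikrein of the connecting tubule, rose by 2.08 (SE 0.17, adjusted p = 7.58e-08) and by a further 1.32.

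The collecting duct was mixed. Of 32 tested of 41 listed, 20 rose and 2 fell, with a median of 0.30. Aqp2, the water channel under vasopressin, lay at 8.64, 8.57, 8.35, 8.38 and 8.39 at E16d and at 10.62, 11.02, 10.33, 10.17 and 10.51 at PN1d, rose by 2.06 (SE 0.16, adjusted p = 4.73e-08) and changed by -0.86 (SE 0.16, adjusted p = 0.000399) over the week. Car15, a membrane carbonic anhydrase, lay at 8.20, 7.91, 7.74, 7.81 and 7.76 at E16d and at 10.03, 9.95, 10.30, 10.31 and 10.03 at PN1d and rose by 2.24 (SE 0.10, adjusted p = 2.32e-10). Slc14a2, the urea transporter, rose at least 4.05-fold by its brighter probe (2.15, SE 0.16, adjusted p = 2.43e-08), while its other probe gave 0.31. Besides Hsd11b2, the anion exchanger Slc4a1 fell by 1.23. This gene is shared with red cells, PN1d replicate 2 (9.54) lay within the E16d range (9.04 to 9.78), and on the arrays low in Kdm5d its difference was -0.99 and did not pass (adjusted p = 0.0589).

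Hormone systems that act on the tubule moved with these segments. Of 17 tested genes of vitamin D, calcium and phosphate, 14 rose and 1 fell (median 0.42). The fall, that of the calcium channel Trpv6 (-0.15), did not pass without E16d replicate 1, E16d replicate 5, PN1d replicate 3 or PN1d replicate 5 or on the arrays low in Kdm5d. Kl, the FGF23 coreceptor klotho, lay at 9.17, 9.33, 9.35, 9.29 and 9.08 at E16d and at 10.41, 10.37, 10.47, 10.45 and 10.11 at PN1d and rose by 1.12 (SE 0.08, adjusted p = 1.58e-08). Of 17 renin, angiotensin and vasoactive genes, 11 rose and 2 fell (1 without E16d replicate 3, E16d replicate 5, PN1d replicate 3, PN1d replicate 4 or PN1d replicate 5). Agtr1a, the main angiotensin receptor, lay at 8.35, 8.29, 8.42, 8.32 and 8.39 at E16d and at 9.29, 9.49, 9.52, 9.48 and 9.46 at PN1d and rose by 1.10 (SE 0.06, adjusted p = 7.98e-10), Corin, the protease that activates natriuretic peptide, by 0.83 (SE 0.10, adjusted p = 6.97e-06), and Npr3, the natriuretic peptide clearance receptor, fell by 0.29.

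Of 27 glucocorticoid-responsive genes tested, 15 rose and 4 fell, with a median of 0.42. The 2 enzymes of local glucocorticoid control went opposite ways: Hsd11b1, which regenerates the active steroid, lay at 6.82, 6.80, 6.90, 6.84 and 6.74 at E16d and at 8.85, 8.93, 8.82, 8.55 and 8.61 at PN1d and rose by 1.93 (SE 0.12, adjusted p = 3.05e-09), whereas Hsd11b2, which inactivates it, fell by 0.78. Tsc22d1 (-0.68), a leucine zipper protein, and Ddit4 (-0.64), which represses mTOR signalling, fell too. Ddit4 rose back by 0.49 over the week. Of 15 clock genes tested, 8 rose and 0 fell (median 0.15), led by the deubiquitinase Usp2 (0.94 (SE 0.11, adjusted p = 3.14e-06); 0.19 and 0.29 by its other probes), the nuclear receptor Rora (0.65) and the repressor Bhlhe40 (0.54). The core repressors Per1, Per2 and Per3, chosen after their values were seen, gave -0.14, -0.01 and -0.01 and did not pass. The hour of collection was not stated in the sources used.

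Rapidly inducible and stress genes gave the following. Of 23 immediate early genes tested, 10 rose and 0 fell (median 0.14). Ier3, an early response gene of survival signalling, lay at 8.51, 8.42, 8.40, 8.67 and 8.53 at E16d and at 9.61, 10.04, 10.07, 9.87 and 9.96 at PN1d and rose by 1.4 (SE 0.08, adjusted p = 1.76e-09). Fos, of the AP-1 factor, lay at 6.52, 6.57, 6.76, 6.88 and 6.78 at E16d and at 6.96, 8.77, 7.01, 6.90 and 7.75 at PN1d. PN1d replicate 2 stood highest, and without it the rise of Fos was 0.45, against 0.77 with all arrays. The call of Fos (adjusted p = 0.0225) ended without PN1d replicate 5 (adjusted p = 0.0524) and by Student's t-test (adjusted p = 0.116). Of 31 hypoxia targets, 9 rose and 7 fell, with a median of 0.01: Ndrg1, a stress and differentiation gene, lay at 9.48, 9.60, 9.43, 9.81 and 9.22 at E16d and at 11.59, 11.71, 11.70, 11.98 and 11.62 at PN1d and rose by 2.21 (SE 0.10, adjusted p = 2.26e-10), and Aldoa and Pdk1, of glycolysis and its control, rose by 0.88 and 0.70, whereas Hk2 fell by 1.41 and Ankrd37 by 0.59. Of 20 tubule injury markers, 11 rose and 3 fell. Nupr1, a stress-inducible nuclear protein, rose by 1.33 (SE 0.08, adjusted p = 3.58e-09), and Cryab, a small heat shock protein of the medulla, by 1.32 (SE 0.09, adjusted p = 1.17e-08), whereas Vcam1 (-0.88), Timp1 (-0.28) and Vim (-0.18) fell. On the arrays low in Kdm5d the difference of Vim was again -0.18 and did not pass (adjusted p = 0.0950).

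Genes of cell division and DNA replication fell almost throughout. Of 55 tested of 74 listed for cell cycle and mitosis, 0 rose and 49 fell, with a median of -0.55, and 41 fell at both steps. Stmn1, which destabilises microtubules, lay at 11.10, 11.25, 11.51, 11.56 and 11.89 at E16d and at 10.44, 10.47, 10.42, 10.74 and 10.71 at PN1d and fell by 0.91 (SE 0.14, adjusted p = 4.64e-05). Cdk1, the mitotic kinase, lay at 10.45, 10.35, 10.41, 10.41 and 10.47 at E16d and at 9.77, 9.70, 9.41, 9.68 and 9.59 at PN1d, fell by 0.79 (SE 0.10, adjusted p = 6.99e-06) and by a further 1.17 over the week. Of 46 tested genes of DNA replication, 0 rose and 42 fell (median -0.55). Tyms, the thymidylate synthase, lay at 10.50, 10.27, 10.48, 10.27 and 10.28 at E16d and at 9.70, 9.37, 8.99, 9.42 and 9.49 at PN1d and fell by 0.97 (SE 0.11, adjusted p = 2.39e-06), and its other probes gave -0.87, -0.25 and -0.21. Uhrf1, which brings the maintenance methyltransferase to new DNA, lay at 11.84, 12.08, 12.10, 12 and 11.95 at E16d and at 11.05, 11.06, 11.03, 11.09 and 11.31 at PN1d. It fell by 0.89 (SE 0.08, adjusted p = 1.96e-07), and Pold1, of the lagging strand polymerase, by 0.85 (SE 0.08, adjusted p = 1.99e-07). Mcm5, of the replicative helicase, and Cdc6, which loads it, both chosen for their promoters after their values were seen, fell by 0.84 and 0.79. By the test of the difference, the birth step lay below the first-week step for 11 of the 46 and above it for 1.

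Brakes of the cell cycle showed no common direction. Of 18 tested, 4 rose (2 without E16d replicate 4, E16d replicate 5 or PN1d replicate 1) and 5 fell (3 on the arrays low in Kdm5d). Cdkn1a, the p21 inhibitor, lay at 8.95, 8.74, 8.38, 8.75 and 8.49 at E16d and at 9.34, 9.87, 9.72, 9.85 and 9.37 at PN1d and rose by 0.97 (SE 0.12, adjusted p = 3.81e-06), while Cdkn1c, the imprinted p57 inhibitor, fell from 13.27 to 13.46 at E16d to 12.83 to 13.10 at PN1d (-0.43, SE 0.06, adjusted p = 2.37e-05). The other probe of Cdkn1a gave 0.59. The pocket protein gene Rbl1 fell by 0.42.

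Promoters were searched for the E2F sites TTTCCCGC, TTTGGCGC or TTTCGCGC. Such a site was in 9 of 40 promoters of the replication list (22.5%) and in 3 of 41 of the cell cycle list (7.32%), against 3.48% of all 7719, 5.72% of lower genes, 8.33% of genes lower by over 1.5-fold and 2.37% of higher genes. These shares were not tested against each other. TTTGAA, the cell cycle homology element, was in 24 of 41 promoters of the cell cycle list (58.5%) against 12% of all. CCAAT was in 38.3% of all promoters and in 52.1% of those of genes lower by over 1.5-fold. Windows of 3 of these genes show how the sites lie, with E2F sites (or their reverse complements, which overlap in Mcm5) and, in Cdk1, TTTGAA in capitals.

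Mcm5 (chr8:75109299-75109418, plus strand): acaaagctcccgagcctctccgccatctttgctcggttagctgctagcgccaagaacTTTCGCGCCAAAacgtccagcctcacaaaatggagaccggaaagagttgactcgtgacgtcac
Cdc6 (chr11:98907951-98908070, plus strand): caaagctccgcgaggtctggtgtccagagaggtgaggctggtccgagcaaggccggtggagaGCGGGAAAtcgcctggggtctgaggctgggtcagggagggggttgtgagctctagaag
Cdk1 (chr10:69352913-69353052, minus strand): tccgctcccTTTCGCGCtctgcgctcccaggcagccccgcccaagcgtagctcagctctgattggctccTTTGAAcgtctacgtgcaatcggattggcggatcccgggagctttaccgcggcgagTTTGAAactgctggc

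Chromatin regulators fell with replication: of 31 tested, 2 rose and 24 fell (median -0.33). Smarcc1, a scaffold of the BAF remodelling complex, fell by 0.89 (SE 0.15, adjusted p = 0.000114) by its brighter probe and gave -0.16 by the other, and Rbbp4, a histone chaperone, fell by 0.70. Cbx7, a Polycomb protein, rose by 0.64 (SE 0.14, adjusted p = 0.00159). Of 44 splicing factors, 33 fell and 2 rose (1 without any 1 of the E16d arrays or PN1d replicates 2, 3, 4 or 5), with a median of -0.44. Srsf5, the riser whose call ended without any 1 of these arrays, gave 1.11 by its other probe. That probe changed by -1.12 over the week. Srsf3 lay at 9.41, 9.45, 9.68, 9.46 and 9.56 at E16d and at 8.97, 8.84, 8.58, 8.57 and 8.64 at PN1d and fell by 0.79 (SE 0.07, adjusted p = 2.81e-07). Hnrnpc, which packages nascent transcripts, fell by 0.67 (SE 0.05, adjusted p = 7.75e-08), and Srsf10 by 0.65. The other probe of Srsf10 gave -0.41. Of 35 genes of ribosome biogenesis, 21 fell and 0 rose (median -0.26), with Pes1 (-0.86, SE 0.07, adjusted p = 7.03e-08), Noc3l (-0.75) and nucleolin, Ncl (-0.72), in front. Ribosomal proteins moved less, with 17 of 47 lower, 0 higher and a median of -0.08, and 11 lower on the arrays low in Kdm5d.

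Chaperones fell in both the cytosol and the endoplasmic reticulum. Of 31 tested of 44 listed, 18 fell and 3 rose, with a median of -0.28, and for 10 the birth step lay below the first-week step by the test of the difference. Dnajb1, the Hsp40 partner of Hsp70, lay at 11.41, 11.42, 11.43, 11.35 and 11.54 at E16d and at 10.76, 10.73, 10.48, 10.60 and 10.66 at PN1d and fell by 0.78 (SE 0.06, adjusted p = 6.26e-08). Hspa5 lay at 9.41, 9.58, 10.16, 9.94 and 10.38 at E16d and at 8.57, 8.94, 8.80, 9.10 and 8.94 at PN1d, with the E16d arrays spread over nearly 1 log2 unit and none below the PN1d arrays. Pdia6, a disulfide isomerase, Creld2, and Hsp90b1, the Hsp90 of the reticulum, chosen for their promoters after their values were seen, fell by 0.56, 0.55 and 0.32. Cryab (1.32) and the mitochondrial chaperone Hspa9 (0.23) rose. The stress element of the endoplasmic reticulum (CCAAT, 9 bases, CCACG), searched after the values were seen, was in 4 of 26 promoters of the list (15.4%) and in 11 of all 7719 (0.143%), whereas a heat shock core (TTCNNGAA) was in 2 of the 26 and in 6.71% of all. The 4 promoters are shown with the element in capitals.

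Hspa5 (chr2:34771970-34772089, plus strand): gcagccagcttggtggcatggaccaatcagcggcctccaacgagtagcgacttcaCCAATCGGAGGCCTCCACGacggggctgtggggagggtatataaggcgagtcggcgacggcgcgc
Pdia6 (chr12:17266439-17266558, plus strand): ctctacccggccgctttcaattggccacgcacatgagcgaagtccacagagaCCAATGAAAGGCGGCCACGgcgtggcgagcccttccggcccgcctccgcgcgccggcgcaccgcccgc
Creld2 (chr15:88819476-88819595, plus strand): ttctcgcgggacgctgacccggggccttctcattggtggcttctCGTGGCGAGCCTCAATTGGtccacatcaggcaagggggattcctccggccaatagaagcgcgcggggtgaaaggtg
Hsp90b1 (chr10:86705525-86705674, minus strand): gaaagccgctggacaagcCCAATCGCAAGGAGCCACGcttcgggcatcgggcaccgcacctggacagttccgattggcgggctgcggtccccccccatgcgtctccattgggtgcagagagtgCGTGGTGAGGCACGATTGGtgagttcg

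Genes that form new nephrons fell on balance and not uniformly. Of 15 tested of 22 listed for the cap mesenchyme, 8 fell and 2 rose (median -0.27). Meox2, a homeobox gene, lay at 8.03, 7.99, 8.21, 8.12 and 7.90 at E16d and at 7.51, 7.35, 7.14, 7.45 and 7.03 at PN1d and fell by 0.75 (SE 0.09, adjusted p = 5.87e-06). Cited1, a marker of uninduced progenitors, lay at 7.28, 7.12, 7.55, 7.19 and 7.33 at E16d and at 7.03, 6.80, 6.60, 6.70 and 6.72 at PN1d, fell by 0.52 (SE 0.08, adjusted p = 5.47e-05) and by a further 0.71 over the week. Itga8, the integrin by which the mesenchyme meets the bud, rose by 0.90 (SE 0.20, adjusted p = 0.00154) with E16d arrays spread between 6.72 and 7.77. Of 14 tested genes of the ureteric tip, 5 fell and 1 rose, with medians of -0.12 at birth and -0.33 over the week. Etv4, a target of GDNF signalling, lay at 8.17, 8.26, 8.24, 7.98 and 7.78 at E16d and at 7.30, 7.68, 7.51, 7.40 and 7.41 at PN1d and fell by 0.62 (SE 0.10, adjusted p = 7.20e-05), and Gfra1, the GDNF coreceptor, fell by 0.26 at birth and by 1.65 over the week. For 7 of the 14 the birth step lay above the first-week step by the test of the difference and for 0 below it. The riser was Cxcl14, a chemokine (0.89, SE 0.15, adjusted p = 0.000117).

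Of 20 tested genes of nephron induction and early segments, 10 fell and 3 rose (median -0.16), with 6 lower on the arrays low in Kdm5d. The Notch targets Hes5 and Hey1 led the falls. Hes5 lay at 7.27, 7.11, 7.07, 7.19 and 7.52 at E16d and at 6.49, 6.33, 6.39, 6.38 and 6.31 at PN1d and fell by 0.85 (SE 0.07, adjusted p = 6.92e-08). Hey1 lay at 10.11, 10, 10.11, 10.02 and 10.03 at E16d and at 9.29, 9.34, 9.07, 9.23 and 9.18 at PN1d and fell by 0.83 (SE 0.05, adjusted p = 8.08e-09), then by 1.29 over the week. Irx5 and Irx3, homeobox genes of intermediate segments, rose by 0.41 and 0.38, and Papss2, which makes the sulfate donor, by 0.63. Of 27 genes of fetal growth, 16 fell (median -0.34) and 2 rose (1 without any of E16d replicates 3 and 5, PN1d replicates 1 to 4 and PN7d replicates 3 and 4). Sox11 lay at 9.32, 9.30, 9.18, 9.24 and 9.16 at E16d and at 8.22, 8.15, 8.0, 8.04 and 8.22 at PN1d and fell by 1.11 (SE 0.06, adjusted p = 1.76e-09). Nnat, the imprinted neuronatin, fell by 0.82 (SE 0.06, adjusted p = 1.55e-08), or 0.48 by its other probe. Phlda2, an imprinted growth repressor of placenta, lay at 7.20, 7.04, 7.29, 7.07 and 7.02 at E16d and at 8.17, 8.13, 8.32, 8.18 and 8.37 at PN1d. It rose by 1.11 (SE 0.08, adjusted p = 1.14e-08) and fell back by 0.82.

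Of 24 Hox genes tested, 8 fell and 2 rose (median -0.14). Hoxc6 lay at 10.14, 9.97, 10.14, 10.17 and 10.16 at E16d and at 9.11, 8.77, 8.97, 8.84 and 9.38 at PN1d and fell by 1.10 (SE 0.11, adjusted p = 7.38e-07). Hoxc10 and Hoxa5 both fell by 0.55, and Hoxd9 and Hoxd8 rose by 0.53 and 0.37. Of 34 Wnt pathway genes, 6 fell and 4 rose (median -0.04): the receptors split, with Fzd3 (-0.60) and Fzd7 (-0.40) lower and Fzd6 (0.49) higher, and so did the secreted antagonists, with Sfrp1 higher (0.92, SE 0.08, adjusted p = 1.00e-07) and Sfrp2 lower (-0.42).

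In the stroma, 7 of 22 genes tested fell and 5 rose. The number of rises was 3 without E16d replicate 1, PN1d replicate 2, PN7d replicate 1 or PN7d replicate 4 and 2 without E16d replicate 3, E16d replicate 5, PN1d replicate 3 or PN1d replicate 5. Foxd1, the transcription factor of stromal progenitors, lay at 8.54, 8.60, 8.86, 8.78 and 9.17 at E16d and at 8.08, 8.11, 8.20, 8.26 and 7.98 at PN1d and fell by 0.66 (SE 0.10, adjusted p = 3.00e-05). Tenascin C, Tnc, rose by 0.43. Of 21 fibrillar collagen and matrix genes, 7 rose and 4 fell (median 0.00), with Timp3, an inhibitor of matrix proteases, higher by 0.87 (SE 0.09, adjusted p = 1.28e-06) and Col6a1 by 0.65. The other probe of Col6a1 gave 0.38. The basement membrane list had 7 higher and 0 lower of 14. Col4a4, of the mature glomerular collagen network, lay at 7.90, 7.91, 8.05, 7.97 and 7.96 at E16d and at 8.83, 8.89, 9.26, 9.17 and 9.13 at PN1d and rose by 1.10 (SE 0.10, adjusted p = 2.54e-07), or 0.31 by its other probe. Its partner Col4a3 rose by 0.66 and laminin alpha 5, Lama5, by 0.53.

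Of 12 podocyte genes tested, 4 rose and 1, Cdkn1c, fell (2 without E16d replicate 1). Actn4, which crosslinks actin in foot processes, and Podxl, the podocyte sialomucin, rose by 0.51 and 0.26 with arrays that overlapped. The other probes of Actn4 gave 0.52 and 0.13, of which 0.13 did not pass (adjusted p = 0.180). Of 23 endothelial genes, 7 rose and 3 fell (1 without PN1d replicate 4). Gpihbp1, which anchors lipoprotein lipase in capillaries, lay at 7.47, 7.53, 7.53, 7.57 and 7.54 at E16d and at 8.76, 8.87, 8.67, 8.57 and 8.34 at PN1d and rose by 1.12 (SE 0.10, adjusted p = 2.09e-07), Flt1, a VEGF receptor, by 0.51 and Plvap, of fenestral diaphragms, by 0.49. Ramp2, a partner of the adrenomedullin receptor, fell by 0.27. Of 26 tested genes of tubulins and the actin cytoskeleton, 10 fell and 5 rose. Fscn1, which bundles actin, fell by 0.62 (SE 0.07, adjusted p = 4.28e-06), while Cfl1, which severs it, rose by 0.89 (SE 0.11, adjusted p = 6.56e-06) and the microvillar linker Ezr by 0.62.

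Markers of other cells that a kidney sample can hold were counted in the same way. Of 9 red cell genes tested of 21 listed, 5 fell and 0 rose (median -0.56), with 3 lower on the arrays low in Kdm5d, and the summed intensity of the list was 21560 to 23830 at E16d and 17260 to 19920 at PN1d. Klf1, the erythroid master factor, was dim at both ages (6.45 to 6.83) and did not pass. Fech did not pass by its brightest probe, while its other probes gave -0.50 and -0.29 and passed (adjusted p = 0.000296 and 0.000678). Of 23 iron and heme genes, 7 rose and 7 fell. Tfrc, the transferrin receptor, lay at 9.39, 9.77, 9.55, 9.50 and 9.40 at E16d and at 9.05, 8.76, 9.27, 8.80 and 8.91 at PN1d and fell by 0.56 (SE 0.11, adjusted p = 0.00041), whereas Hp, haptoglobin, rose by 0.62 with PN1d replicate 2 highest (7.83), while its other probe gave 0.17 and did not pass. Of 13 neutrophil markers, 9 rose and 0 fell (median 0.38), and the summed intensity was 1125 to 1273 at E16d and 1813 to 2517 at PN1d. S100a9, a calprotectin subunit abundant in neutrophils and chosen after its values were seen, lay at 6.53, 6.31, 6.78, 6.90 and 6.54 at E16d and at 8.42, 8.90, 8.30, 8.69 and 8.40 at PN1d. It rose by 1.93 (SE 0.14, adjusted p = 3.30e-08) and changed by -1.53 (SE 0.14, adjusted p = 4.90e-07) over the week, and its partner S100a8 gave 1.90 and -1.63. Of 15 macrophage markers, 1, the lipopolysaccharide coreceptor Cd14, rose (2 without PN1d replicate 3) and 3 fell. Interferon and antigen presentation genes had 13 of 28 higher and 1 lower (0 without E16d replicate 1, E16d replicate 3, PN1d replicate 1, PN1d replicate 2 or PN1d replicate 5), with the peptide transporter subunit Tap2 at 0.60 and the factor Irf8 at 0.51.

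Liver plasma protein genes moved with PN1d and most of all with 1 array. Of 19 tested of 30 listed, 11 rose and 0 fell (median 0.62), 10 rose without PN1d replicate 2 (median 0.46), 7 without E16d replicate 3 and 7 on the arrays low in Kdm5d. Ttr, transthyretin, chosen after its values were seen, lay at 8.57, 7.27, 7.85, 7.55 and 7.29 at E16d and at 10.62, 11.09, 9.11, 11.27 and 8.31 at PN1d, with PN1d replicate 5 inside the E16d range, and rose by 2.38 (SE 0.45, adjusted p = 0.000371). Ahsg, fetuin, chosen likewise, lay at 6.50, 6.26, 6.29, 6.25 and 6.34 at E16d and at 6.91, 10.11, 7.49, 7.76 and 6.31 at PN1d and rose by 1.39 (SE 0.46, adjusted p = 0.0216). The difference was 0.79 without PN1d replicate 2. The call ended on the arrays low in Kdm5d (adjusted p = 0.0564) and by Student's t-test (adjusted p = 0.114). Several genes of the rising lists, such as G6pc, Pck1 and Fga, are also made by liver. Across the PN1d arrays G6pc ran from 10.54 to 11.12 and Pck1 from 8.57 to 9.47, with PN1d replicate 2 at 10.60 and 8.87, within both ranges. Without that array, 43 of the 49 proximal tubule carriers rose, with a median of 1.01. The part of liver RNA in other results was not tested.

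Of 14 fat markers, 4 rose and 0 fell (median 0.06), with the summed intensity at 1827 to 1913 at E16d and 2595 to 2989 at PN1d. The risers were Dgat2, Lpl, Aqp7 and Cox7a1, which other tissues also express. Ucp1, Cidea and Adipoq, among the 10 that did not pass, gave 0.05, 0.06 and -0.10. The part of fat RNA in these samples was not tested. Of 7 adrenal genes, 2 rose, among them Nr5a1, the steroidogenic master factor (0.25), and Gata6 fell (-0.48), while Star, which feeds cholesterol into steroid synthesis, did not pass (0.11). Of 7 gonad markers, 4 rose (2 without PN1d replicate 5) and 2 fell. Of 12 muscle markers, 4 rose, a number that was 2 without E16d replicate 1 or PN1d replicate 5 and 1 without E16d replicate 3, E16d replicate 5, PN1d replicate 2 or PN1d replicate 3, and 1 fell. Of 6 neural markers, 1 fell (2 without PN1d replicate 5): Gap43, of growing axons, lay at 7.28, 7.47, 7.43, 7.49 and 7.37 at E16d and at 6.86, 6.82, 6.72, 6.67 and 6.71 at PN1d and fell by 0.65 (SE 0.06, adjusted p = 1.88e-07). Of 7 lymphocyte and mast cell genes, 3 fell (1 without E16d replicate 3, E16d replicate 4 or PN1d replicate 1) and 0 rose, each by less than 0.25.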

How the data were processed

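Kidney RNA was read on Illumina MouseRef-8 arrays. The log2 values analysed are those deposited by the authors, who, per their methods, read the arrays with BeadStudio and quantile normalized them, and the log base was inferred from the range of the values. Background subtraction, chip layout and any pooling of animals are not given in the sources used here. A further table, with 30 columns of non-normalized signals and detection p-values, was not used because its column names match no sample's labels. Of 24613 probes, 20984 had 1 gene symbol in the platform annotation. The 3 ages were fitted in 1 linear model over 15 arrays with limma 3.58.1 (lmFit, eBayes; R 4.3.3), with Benjamini-Hochberg adjustment over the 9531 genes past 6.22. The method was also tested on simulated arrays with independent noise, in which far fewer genes changed than here. That run does not measure the error rate of the present calls. Promoters came from the RefSeq table of GRCm38.p6.

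Genes were named by rule: the 15 largest rises and falls whose arrays did not overlap, the 10 highest and lowest differences between steps, the 3 largest rises and falls of each list, the 5 smallest adjusted p in each direction, and members of short lists. Others are said to be chosen after their values were seen, or, in the marker lists and among the kidney markers, are members of small counts. The comparison, the gene lists and the naming rule were chosen with earlier results of these data known, so they give no independent support. Alternatives covered the filter, averaging over probes, the model of the variance, the arrays fitted, centring and background correction. Others were Student's t-test, a replicate block and leaving out each array. Both settings on Kdm5d were chosen after the data were seen.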

Additional observations from a re-analysis of the deposited data

Results flagged for a closer look

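Among 484 groups of 5 arrays (the E16d or PN1d values of the named genes), 29 held 1 array whose gap to the nearest other was large against the range of the group by Dixon's criterion, which picks about 1 in 20 groups by chance. The array that stood apart was PN1d replicate 5 in 5 of them, E16d replicate 5, PN1d replicate 1 and PN1d replicate 2 in 4 each, and E16d replicates 1, 2 and 3 in 3 each.

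The widest gap was that of Kdm5d, for which E16d replicate 4 lay at 7.78 and the other E16d arrays between 5.75 and 5.83. Slc4a1 lay at 9.545 on PN1d replicate 2 and between 7.71 and 8.12 on the other PN1d arrays, Rpl14 at 8.07 on PN1d replicate 3 against values up to 7.496, and Usp2 at 9.45 on PN1d replicate 2 against 8.70 to 8.86. PN1d replicate 2 was also highest for Cdkn1c (13.1) and for Kel, a red cell antigen (6.50 against 6.27 to 6.29). PN1d replicate 5 was lowest for Hsd17b2 (7.91 against 8.49 to 8.55) and Kl (10.11 against 10.37 to 10.47), and highest for Umod (9.74), Uhrf1 (11.31) and the mast cell tryptase Tpsb2 (6.38). PN1d replicate 1 was lowest for Agtr1a (9.29), Lama5 (7.79) and Loxl1 (10.25) and highest for Cyp7b1 (8.64). PN1d replicate 3 was highest for Cxcl14 (8.78).

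At E16d, replicate 1 was highest for Hsd11b2 (8.53), Chordc1 (10.96) and Creld2 (10.44). Replicate 2 was lowest for Lgmn (9.37) and Hoxc6 (9.97) and highest for Fscn1 (9.86). Replicate 3 was highest for Cyp24a1 (6.53) and Vim (12.44) and lowest for Hsd17b2 (6.35). Replicate 5 was lowest for Gpx3 (9.34) and Gnpat (7.80) and highest for Cyp7b1 (8.88) and Rpl13a (11.88).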

How the results depend on the processing

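Among the 222 named genes that passed the test, no difference at birth turned its direction under the alternatives run. For the other genes this was not checked. Of the genes tested, 1680 had several probes past the filter, and 27 had another probe called in the direction opposite to that of the brightest. Of 2055 other probes, 616 were called along with the brightest probe of their gene, 589 of them in the same direction. With the filter at the upper quartile (7.71), which tests fewer genes, the difference between steps passed for 1732 genes and PN1d was an extreme for 419, of which 220 were peaks and 199 troughs. On the 10 arrays low in Kdm5d, a smaller sample, these numbers were 1324, 336, 196 and 140. With normexp background correction, 501 genes were lower by over 1.5-fold, where 313 were in the values as deposited, and the cause was not tested. Without 1 array in turn, the number of changed genes ran from 4055 to 4517, of higher genes from 1874 to 2085 and of lower genes from 2173 to 2432. Same-numbered arrays of both ages did not deviate together (correlations between -0.046 and 0.098), and a fit with the replicate number as a block called 2034 higher and 2416 lower genes. The methods name Student's t-test in their general statistics, whereas they collected array genes by fold change. Run here on the arrays, this t-test passed for 5154 genes before and 4527 after Benjamini-Hochberg adjustment. It passed for 808 before adjustment and past 1.5-fold. The share of calls that were higher lay between 43.1% and 46.8%, and centring each array on its median moved the median of all genes from -0.02 to -0.03.

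Of 222 named genes that passed, 33 lost the call under at least 1 of 27 alternatives and 17 of them without 1 array. Of 106 numbers of higher or lower genes in lists, 71 stayed within 1.5 times under every alternative. The arrays carry no signal-to-background value used here, so dim genes are limited by the floor of the scale.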
